A study of Mus musculus with 4 samples.

Results

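The 10 genes Trp63, Tfap2a, Tfap2c, Tfap2e, Klf4, Klf5, Grhl1, Grhl3, Ovol1 and Dlx3 encode transcription factors that set up the epidermal lineage or drive its differentiation, and their levels were read from RNA sequencing of cultured mouse epidermal stem cells. They were taken by name from the deposited table, as 10 of its 54532 genes, and all 10 were among the 14056 genes with enough counts to be tested. The cells came from the skin of C57BL/6 mice and grew in EpiLife medium with the HKGS supplement. For 48 h, 1 group received ALP at 30 μg/mL, read here as the polysaccharide of Arctium lappa L. (burdock) in the series title, and the control group received DMSO at 0.06%. Each group held 2 libraries, called A and B here only to name them. The treatment protocol applies ALP to the cells, while the design text of the series can be read as treatment of the mice. Age, sex and any DMSO in the ALP cultures are not given in the labels. Nor do they tie the 2 libraries of a group to different cultures or mice, and the p-values then cover only how far these libraries varied, a spread that may be technical.

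The epidermis renews from a basal layer of dividing keratinocytes, whose daughters stop dividing, move upward and build keratin filaments, desmosomes and the cornified envelope. The p63 protein is required to form and maintain stratified epithelium. AP-2, Krüppel-like (KLF) and grainyhead-like (GRHL) factors act with it or after it on keratin, adhesion and barrier genes, and OVOL1 and DLX3 belong to the programme of cells that leave the basal layer.

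The libraries held between 15766244 and 17430345 counts. The control pair differed by a chi-square of 6.42 per degree of freedom and the ALP pair by 24.8, so both pairs differed by more than counting noise. Markers of basal keratinocytes were abundant in every library, except Krt15 in ALP replicate B (1.75 CPM, counts per 1000000 scaled by TMM). Their summed level over 10 markers was lower in both ALP libraries (39084 and 33142 CPM) than in both controls (50135 and 50618 CPM). Krt5 and Krt14 made up most of that sum in each library. Of these 10 markers 4 rose (40%, against 17.7% of all tested genes) and 3 fell (30%, against 12.1%). Those that rose were Epcam, Itgb4, Itgb1 and Itga6, and those that fell were Krt5, Krt14 and Col17a1. Krt15 measured 251 and 201 CPM in the controls and 58.4 and 1.75 CPM in ALP replicates A and B. It did not pass (edgeR adjusted p = 0.114). All 8 immune markers were under 1 CPM in every library, and 2 of them (Cd207 and Cd3e) had 0 counts in all 4. The 9 mesenchymal markers summed to 10.6 and 7.37 CPM in the ALP libraries and 19.5 and 16.6 in the controls, with Lum at 0 counts. Most of that difference was Dcn, which fell (from 13.1 and 8.57 to 3.07 and 0.517 CPM). It was the only 1 of the 7 tested mesenchymal markers that passed, and none rose. The 7 melanocyte markers summed to between 59.99 and 74.5 CPM, and the ranges of the groups overlapped. Mitf fell (from 11.3 and 10.5 to 4.86 and 4.14 CPM, edgeR adjusted p = 0.0161). It was the only 1 of these 7 that passed, and none rose. Summed markers of endothelial cells (15.1 and 25.1 CPM in ALP, 6.23 and 7.77 in control), Merkel cells (2.89 and 5.69 against 1.25 and 1.43) and sebocytes (24.0 and 31.6 against 13.9 and 15.1) were higher in ALP. Of the 5 endothelial markers Kdr rose (from 0.769 ± 0.367 to 8.53 ± 3.48 CPM) and Pecam1 rose (from 70 and 97 counts to 144 and 213), Tek fell (28 and 20 to 4 and 3), Tie1 had at most 8 counts in a library and Cdh5 at most 2. Of the 4 Merkel cell markers Piezo2 rose (from 18 and 22 counts to 43 and 86), and Krt20, Isl1 and Atoh1 had at most 4 each. Of the 5 sebocyte markers Soat1 rose (from 242 and 257 counts to 406 and 479), and Scd3, Mogat1, Mc5r and Awat1 had at most 8 each. The part of these other cells in the results was not tested.

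Trp63, Tfap2e and Dlx3 fell after ALP and 0 of the 10 genes rose, by edgeR's quasi-likelihood test with Benjamini-Hochberg adjustment over all genes tested and a threshold of 0.05. Of all genes tested, 12.1% were called lower, 17.7% higher and 29.8% in either direction. Grhl1, Tfap2a, Klf5 and Ovol1 measured lower in both ALP libraries than in both controls and lay just above the threshold, with adjusted p-values between 0.0503 and 0.0640. Klf4, Tfap2c and Grhl3 had fitted differences within 0.16 of 0 on the log2 scale. In 8 of the 10 genes both ALP libraries lay below both controls, an order found in 37.5% of all tested genes, and in Tfap2c both lay above, as in 38.2%. Over the 10 genes the median log2 fold change was -0.63, and over all tested genes it was -0.0029. With either control library left out, A or B, 0 of the 10 genes passed. DESeq2's Wald test called 6 of the 10 genes lower and limma-voom 7.

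**Figure D1:**
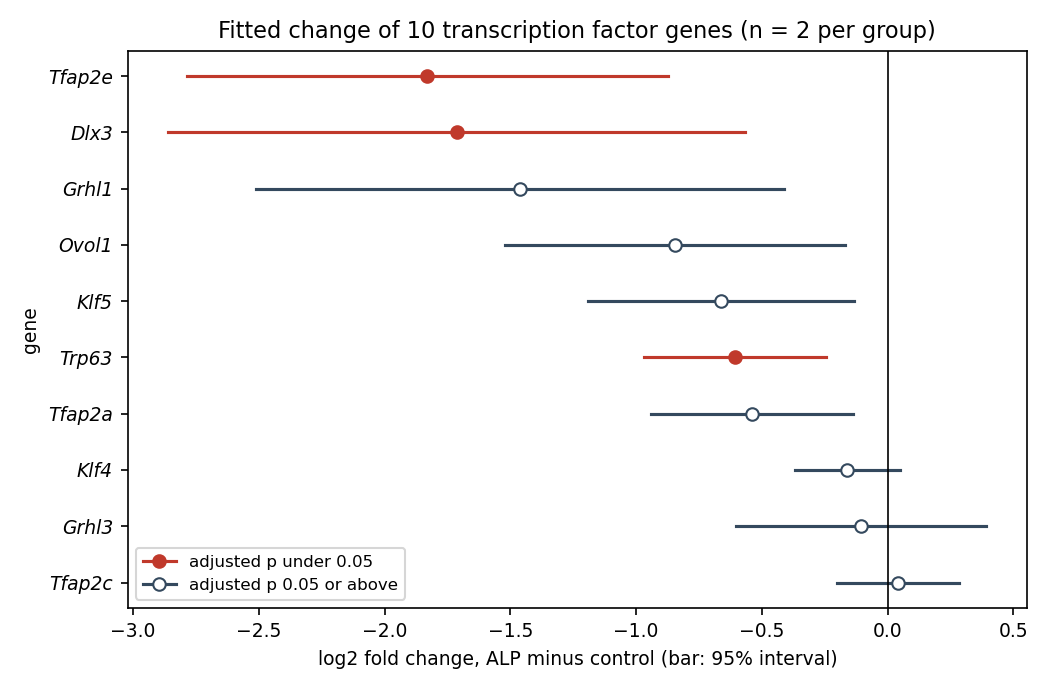
Fitted log2 fold change of each gene, ALP minus control (horizontal axis), with its 95% interval from edgeR's quasi-likelihood fit, for 2 libraries a group. Filled red points mark the 3 genes that passed, and the intervals of Klf4, Grhl3 and Tfap2c include 0.

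In control cells Trp63 was the most abundant of the 10 genes per length. On the scale of CPM per kilobase of gene length, Trp63 stood at 65.5 ± 2.28 (SD, n = 2), rank 9 of the 1469 genes that the table assigns to a transcription factor family. Klf5 followed at 40.8 ± 1.99, then Tfap2a at 32.0 ± 0.561 and Klf4 at 29.5 ± 0.876. Grhl1 (17.3 ± 2.63) and Ovol1 (15.9 ± 0.291) were neighbours whose libraries overlapped. Below them came Tfap2c at 10.4 ± 0.139, Grhl3 at 8.76 ± 0.269, Dlx3 at 6.75 ± 0.221 and Tfap2e at 4.89 ± 1.03. After ALP the genes below Trp63 formed 3 sets within which neighbours overlapped. Trp63 was again first at 43.1 ± 8.10 CPM per kilobase, rank 26 of the 1469 genes. Klf4 (26.4 ± 1.07), Klf5 (25.8 ± 8.03) and Tfap2a (22.0 ± 4.99) formed the first set, and Tfap2c (10.7 ± 0.144), Ovol1 (8.82 ± 3.58), Grhl3 (8.13 ± 2.12) and Grhl1 (6.25 ± 3.92) the second. Dlx3 (2.04 ± 1.45) and Tfap2e (1.36 ± 0.701) were again the lowest. Grhl1 went from rank 123 to 312 of the 1469 genes and Klf4 stood at rank 56 in both groups.

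**Figure D2:**
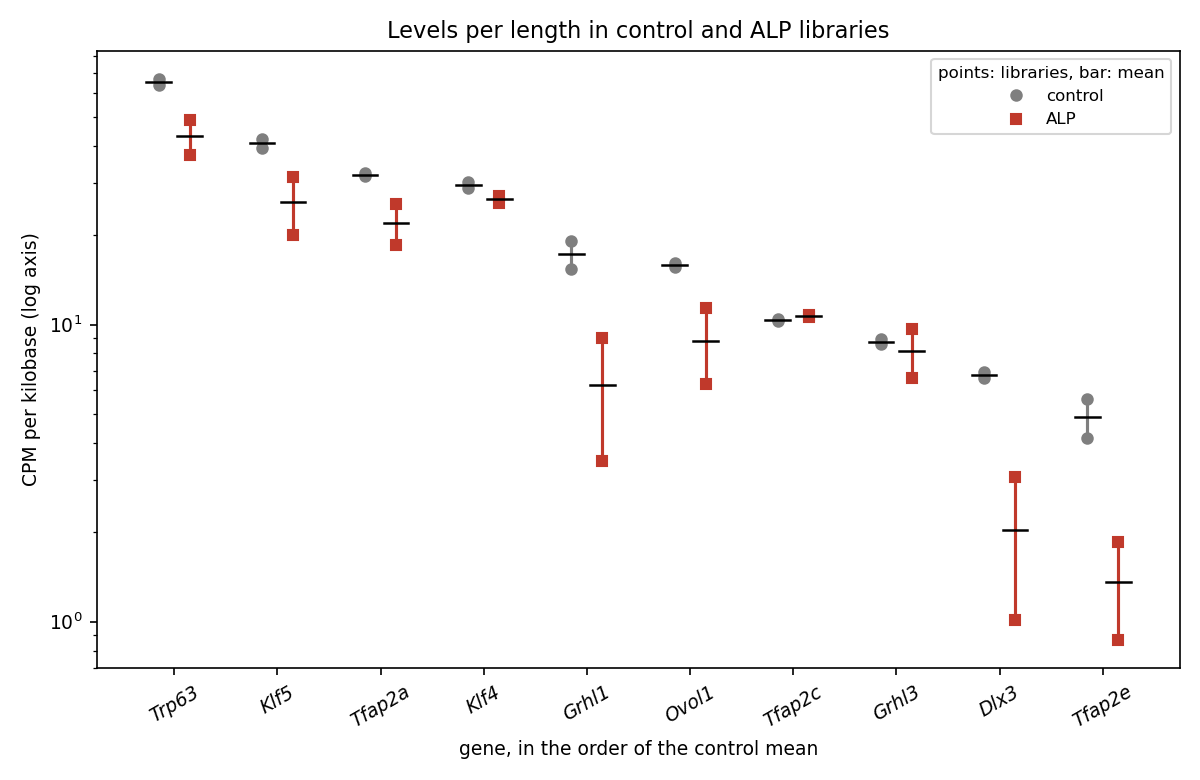
CPM per kilobase of the 10 genes on a log axis, ordered by the control mean, with each library as a point (grey circles control, red squares ALP), a line joining the 2 libraries of a group and a black bar at their mean. The Grhl1 mean lies above those of Ovol1, Tfap2c and Grhl3 in control and below them in ALP, with libraries that overlap those of Ovol1 in both groups.

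Trp63 (chromosome 16, 25683763 to 25892102, GRCm38) encodes p63, the master regulator of the keratinocyte lineage, whose N-terminally shortened form predominates in basal cells. It measured 563 and 536 CPM in control replicates A and B and 409 and 313 CPM in ALP replicates A and B. The groups did not overlap, and ALP replicate B was the lowest library. The fitted log2 fold change was -0.61 ± 0.14 (SE, n = 2 per group, edgeR adjusted p = 0.0328), which left the ALP mean at 65.7% of the control mean. The gene-level count adds up all Trp63 transcripts, so the isoforms were not told apart. The other genes of the table's P53 family moved in both directions. Trp53 rose from 154 ± 10.4 to 202 ± 2.32 CPM (edgeR adjusted p = 0.0294). Trp73, which encodes the p53 relative p73, fell from 70.5 ± 1.66 to 27.7 ± 14.1 CPM (edgeR adjusted p = 0.0352).

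**Figure D3:**
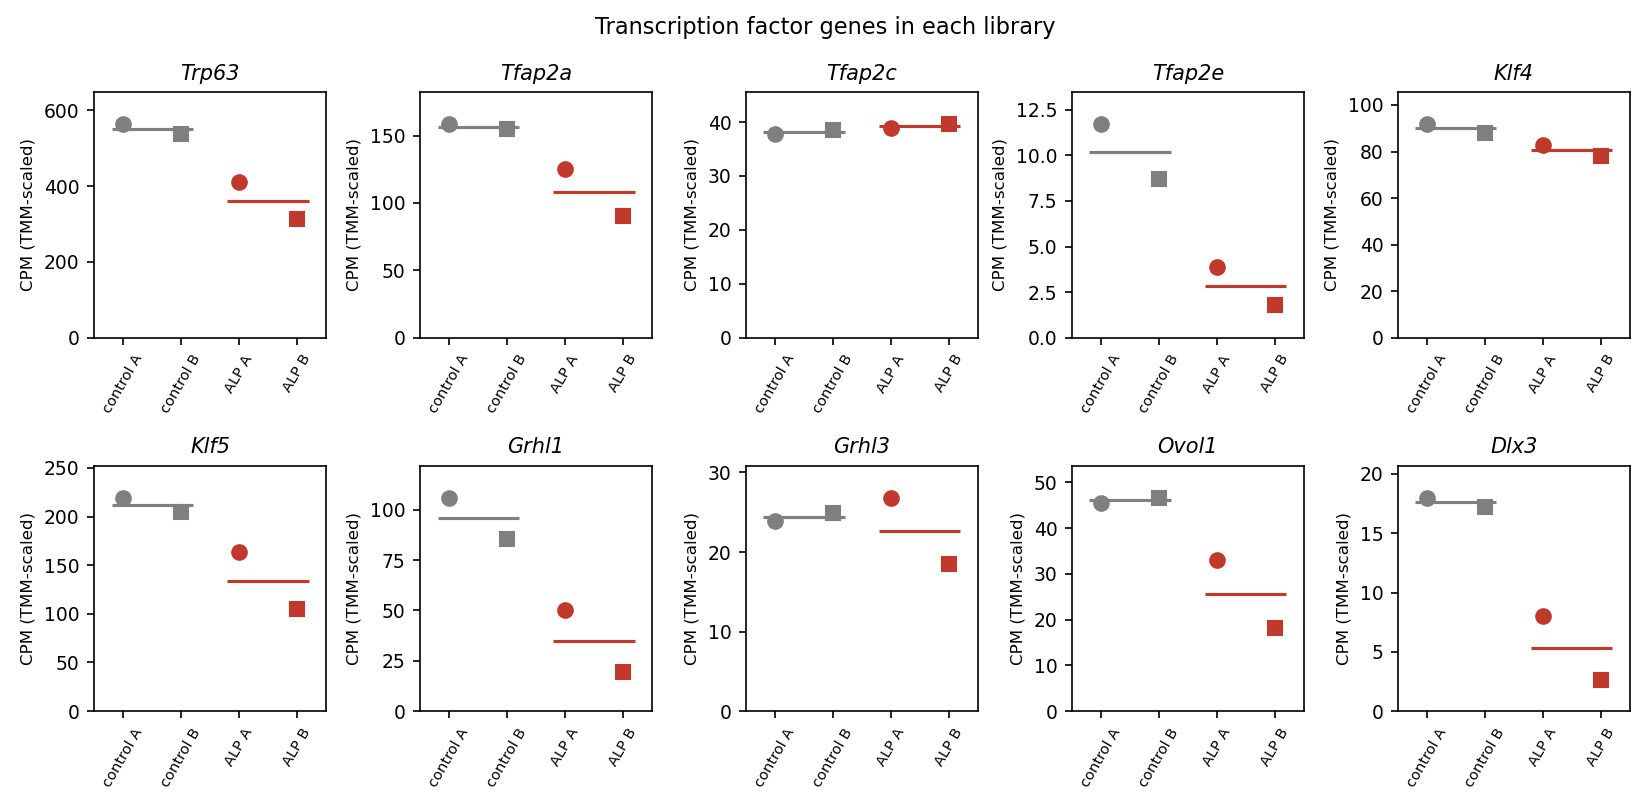
TMM-scaled CPM of each gene in the 4 libraries (grey control, red ALP; circles replicate A, squares replicate B), with a line at each group mean and each vertical axis starting at 0. ALP replicate B lies below ALP replicate A in 9 of the 10 panels, all except Tfap2c.

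The AP-2 genes encode factors that bind GC-rich elements of keratin and other ectodermal genes, and of the 3 described here 1 passed the test. Tfap2e (chromosome 4, 126716006 to 126736240), which encodes AP-2 epsilon, had the lowest level. It measured 11.7 and 8.68 CPM in the controls and 3.88 and 1.81 CPM in the ALP libraries, from 28 to 207 counts a library. The groups did not overlap, and Tfap2e fell by 1.83 ± 0.38 on the log2 scale (edgeR adjusted p = 0.0248), and leaving out ALP replicate A or B gave -2.50 or -1.38. Tfap2a (chromosome 13, 40715302 to 40738376) encodes AP-2 alpha, a regulator of neural crest and surface ectoderm. It measured 159 and 155 CPM in the controls and 125 and 90.6 CPM in the ALP libraries. Both ALP libraries lay below both controls, and the log2 difference of -0.54 ± 0.16 did not pass (edgeR adjusted p = 0.0546). Its difference was -0.31 without ALP replicate B, and antisense genes that share up to 7.75% of its exon bases had at most 119 counts each against 9074 for Tfap2a over the 4 libraries.

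Tfap2c (chromosome 2, 172549593 to 172558622) encodes AP-2 gamma, which acts with p63 when surface ectoderm commits to epidermis. It measured 37.8 and 38.5 CPM in the controls and 38.9 and 39.6 CPM in the ALP libraries. The log2 difference was 0.04 ± 0.10 (edgeR adjusted p = 0.768), with a 95% interval from -0.20 to 0.28. Of the other AP-2 genes in the table, Tfap2b fell by 0.86 ± 0.22 (edgeR adjusted p = 0.0376), to 30.4 ± 9.71 from 55.1 ± 0.134 CPM, and Tfap2d had 0 counts in all 4 libraries. Per length, Tfap2c made up 21.3% and 22.7% of the summed Tfap2a, Tfap2c and Tfap2e in the controls and 27.8% and 35.8% in ALP replicates A and B. The share of Tfap2e was 11.7% and 9.02% in the controls against 4.90% and 2.88% in ALP. The share of Tfap2a overlapped between the groups (67.1% and 68.3% against 67.3% and 61.3%). With 2 against 2 libraries the smallest two-sided p of an exact permutation test is 0.333, so that test cannot pass for any of these ratios and shares, and they are given as a description.

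RefSeq promoter sequences were at hand for 5 of the 10 genes (GRCm38.p6), and 4 are shown where their gene is described, to set a gene that passed beside genes that did not. Each is given as the 250 bases before the start, 5′ to 3′ on the gene's strand, with matches in capitals to any of 5 motifs searched on both strands. These were the AP-2 motif GCCNNNGGC, found in 13.7% of 32817 mouse promoters of this length, the GC box GGGCGG (32.7%), the CACCC box of KLF factors CCNCACCC (14.9%), the grainyhead motif AACCGGTT (0.116%) and the response element unit of the p53 family (7.12%). A match describes letters and does not show binding. Tfap2e, which fell, has its promoter at chr4:126736270-126736519 on the minus strand. It held 1 CACCC box, from -127 to -120 before the start.
Tfap2e: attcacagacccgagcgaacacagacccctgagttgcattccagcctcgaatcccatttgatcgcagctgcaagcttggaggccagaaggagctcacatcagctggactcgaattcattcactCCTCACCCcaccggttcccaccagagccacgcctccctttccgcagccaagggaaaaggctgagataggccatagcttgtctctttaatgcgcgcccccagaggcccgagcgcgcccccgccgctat

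Klf4 and Klf5 encode zinc finger factors with a closely related DNA-binding domain, and their mean levels per length were closer in ALP than in control. KLF4 is needed for the skin barrier and is placed mainly in the upper layers, whereas KLF5 is found in the basal layer. Klf4 (chromosome 4, 55527143 to 55532466) measured 91.8 and 88.0 CPM in the controls and 82.8 and 78.2 CPM in the ALP libraries. Both ALP libraries lay below both controls by a small margin, and the log2 difference of -0.16 ± 0.08 did not pass (edgeR adjusted p = 0.187, 95% interval -0.37 to 0.05). Klf5 (chromosome 14, 99298691 to 99315036) measured 219.5 and 205 CPM in the controls and 164 and 104 CPM in the ALP libraries. The groups did not overlap, and ALP replicate B was the farthest from the controls. The log2 difference was -0.66 ± 0.21 (edgeR adjusted p = 0.0638), and leaving out ALP replicate A or B gave -1.03 or -0.36. Per length, Klf4 stood at 0.713 and 0.733 of Klf5 in the controls and at 0.863 and 1.28 in ALP replicates A and B. The ratio was higher in both ALP libraries, above 1 in replicate B alone.

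The Klf4 promoter lies at chr4:55532476-55532725 on the minus strand and has a GC content of 74.0%, where the median promoter has 52.4%. It is shown beside the others because it held the most matches, 4 GC boxes, of which 2 share a base, and 1 AP-2 motif ending at the base before the start.
Klf4: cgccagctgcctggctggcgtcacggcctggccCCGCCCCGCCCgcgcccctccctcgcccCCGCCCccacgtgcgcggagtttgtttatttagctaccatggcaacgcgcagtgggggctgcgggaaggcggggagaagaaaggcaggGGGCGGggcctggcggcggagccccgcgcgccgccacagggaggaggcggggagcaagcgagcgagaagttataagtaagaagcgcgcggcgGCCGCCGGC

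**Figure D4:**
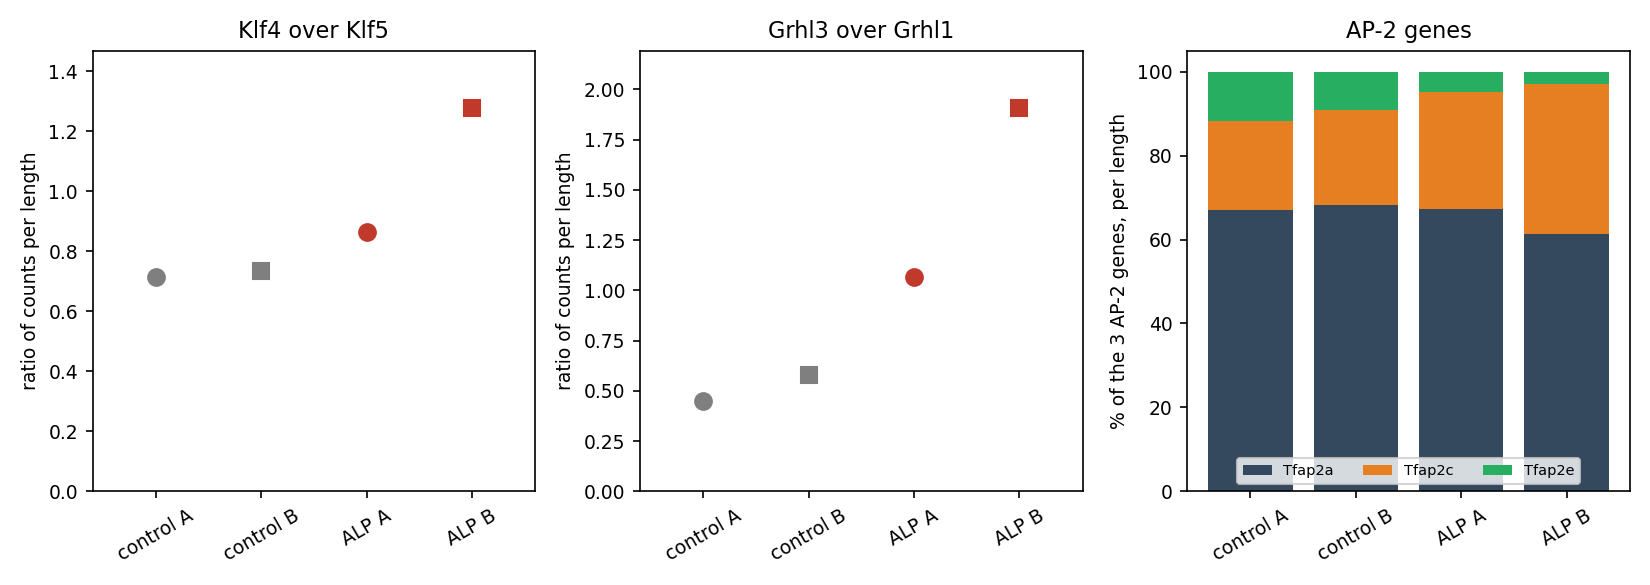
Ratios of related genes in each library, from counts divided by gene length: Klf4 over Klf5 (left), Grhl3 over Grhl1 (middle) and the percent of the summed Tfap2a, Tfap2c and Tfap2e taken by each (right). Both ratios are higher in the 2 ALP libraries than in the 2 controls, and the Tfap2e share is lower.

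Grhl1 and Grhl3 encode grainyhead-like factors of which neither passed the test with all libraries. GRHL1 is known for the control of desmosomal cadherin genes and GRHL3 for barrier formation and wound closure. Grhl1 (chromosome 12, 24572283 to 24617391) measured 106 and 85.4 CPM in the controls and 49.99 and 19.3 CPM in the ALP libraries. The groups did not overlap, but the ALP libraries differed by more than 2-fold from each other. The log2 difference was -1.46 ± 0.42, with an edgeR adjusted p = 0.0503 that narrowly missed the threshold. It passed with median-of-ratios scaling (edgeR adjusted p = 0.0486) and by limma-voom (adjusted p = 0.0279) but not by DESeq2's Wald test (adjusted p = 0.0704), and leaving out ALP replicate A or B gave a difference of -2.32 or -0.93.

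Grhl3 (chromosome 4, 135541888 to 135573630) measured 23.9 and 25.0 CPM in the controls and 26.8 and 18.5 CPM in the ALP libraries. The ALP libraries lay on either side of the controls. The log2 difference was -0.11 ± 0.20 (edgeR adjusted p = 0.710, 95% interval -0.60 to 0.39), and its sign turned without ALP replicate B, to 0.15. Without ALP replicate A it was -0.41 and passed (edgeR adjusted p = 0.0317), with the spread taken from the control pair. Per length, Grhl3 stood at 0.448 and 0.581 of Grhl1 in the controls and at 1.07 and 1.91 in ALP replicates A and B. Grhl2, the remaining gene of this group, measured 110 ± 0.0633 CPM in control and 113 ± 2.17 in ALP and did not pass (edgeR adjusted p = 0.674). The promoters of both described genes are printed for comparison. RefSeq gives Grhl1 2 starts. The promoter of the first, at chr12:24572037-24572286 on the plus strand, held 1 AP-2 motif (-82 to -74) and 2 GC boxes, and that of Grhl3, at chr4:135573633-135573882 on the minus strand, held 1 CACCC box (-112 to -105) and 1 GC box (-53 to -48). The GC content was 75.6% and 56.0%, and neither held the grainyhead motif. The promoter of the second Grhl1 start, at chr12:24580469-24580718 with a GC content of 52.0%, is not printed and held 0 matches to the 5 motifs.
Grhl1: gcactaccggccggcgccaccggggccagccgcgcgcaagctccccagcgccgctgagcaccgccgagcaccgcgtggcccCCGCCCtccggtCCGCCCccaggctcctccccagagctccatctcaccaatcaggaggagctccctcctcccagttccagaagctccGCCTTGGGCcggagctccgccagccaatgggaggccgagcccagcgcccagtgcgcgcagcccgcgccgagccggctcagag
Grhl3: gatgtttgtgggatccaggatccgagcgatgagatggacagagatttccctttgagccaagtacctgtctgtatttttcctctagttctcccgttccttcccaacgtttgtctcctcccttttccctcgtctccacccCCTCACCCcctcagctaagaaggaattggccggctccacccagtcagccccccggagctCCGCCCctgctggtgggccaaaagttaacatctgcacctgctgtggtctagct

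Ovol1 and Dlx3 encode factors of cells on the way out of the basal layer. OVOL1 is a zinc finger repressor that restrains keratinocyte proliferation, and DLX3 is a homeobox factor of suprabasal cells whose gene is a known target of p63. Dlx3 (chromosome 11, 95120119 to 95125296) measured 18.0 and 17.2 CPM in the controls and 7.98 and 2.65 CPM in the ALP libraries. The groups did not overlap, and Dlx3 fell by 1.71 ± 0.46 on the log2 scale (edgeR adjusted p = 0.0424), to 30.2% of the control mean. Leaving out ALP replicate A or B gave -2.73 or -1.13, and with a robust prior, an alternative chosen after the data were seen, Dlx3 did not pass (edgeR adjusted p = 0.0655). Ovol1 (chromosome 19, 5549137 to 5560575) measured 45.5 and 46.7 CPM in the controls and 32.9 and 18.2 CPM in the ALP libraries. The control libraries were close together and the ALP libraries both lower, with a log2 difference of -0.85 ± 0.27 (edgeR adjusted p = 0.0640). Leaving out ALP replicate A or B gave -1.34 or -0.47. A pseudogene on the opposite strand that shares 19.8% of the Ovol1 exon bases in the GENCODE annotation had 7 counts in all. The deposited Ovol1 length, on which its level per length rests, is 2900 bases against 3488 in that annotation. Whether the overlap changed the Ovol1 counts was not tested.

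In the authors' deposited table, Trp63, Tfap2e and Dlx3 had log2 fold changes of -0.60, -1.84 and -1.72 with adjusted p-values of 0.000957, 0.000292 and 0.000923. In the authors' deposited table the adjusted p-values were 0.0129 for Tfap2a, 0.00812 for Klf5 and 0.00987 for Ovol1, all under 0.05, and 0.0691 for Grhl1. These come from the same 4 libraries.

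Most of the 10 genes were lower in ALP replicate B than in ALP replicate A. Relative to the control mean, the median log2 difference of the 10 genes was -0.40 for ALP replicate A and -0.92 for replicate B. In 9 of 10 genes (90.0%) replicate B was lower than replicate A, compared with 50.6% of all 14056 tested genes, 81.2% of the 5278 with both ALP libraries below both controls and 91.3% of the 1705 called lower. The 25 terminal differentiation products listed summed to 1673 and 452 CPM in ALP replicates A and B against 5064 and 4294 CPM in the controls. In the controls Krt1 was the largest part, at 2511 and 2086 CPM. It measured 663 and 19.7 CPM in ALP replicates A and B and did not pass (edgeR adjusted p = 0.167). Ivl, Cnfn and Aloxe3 were higher in replicate B than in replicate A. A lower level in replicate B was shared by 91.3% of all genes called lower, and a link between factors and products was not tested. In bulk RNA, fewer cells of a type and less RNA per cell cannot be told apart, and the part of cell composition in these differences was not tested.

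**Figure D5:**
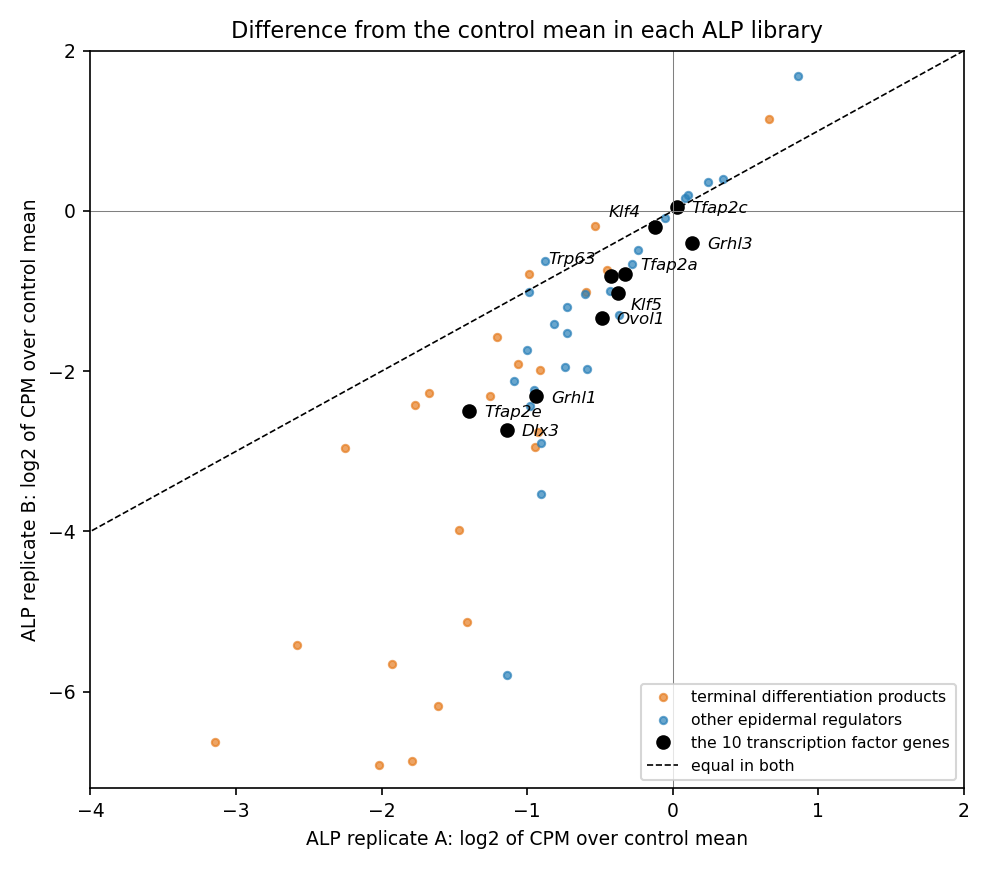
Log2 of CPM over the control mean in ALP replicate A (horizontal axis) and replicate B (vertical axis) for the 10 genes (black), 25 tested other epidermal regulators (blue) and the tested terminal differentiation products (orange, without Calml3, which had 0 counts in replicate B). Points below the dashed line were lower in replicate B, where Dlx3, Tfap2e and Grhl1 stood lowest among the 10 genes.

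The lists that follow are set against the 12.1% of all tested genes called lower and the 17.7% called higher. Relatives of the 10 factors moved in both directions. Of 23 listed paralogs 20 were tested, of which 8 fell, 3 rose and 9 did not pass, with a median log2 fold change of -0.47. Klf7 fell by 0.61 ± 0.10 (edgeR adjusted p = 0.0178), Klf9, which responds to glucocorticoids, by 0.96 ± 0.18 and Dlx5 by 2.14 ± 0.42 at a control level of 1.90 ± 0.190 CPM. Klf16 rose by 0.78 ± 0.14, from 26.4 ± 2.05 to 45.2 ± 6.22 CPM.

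Other regulators of epidermis and hair follicle were more often lower than higher. Of 26 listed, 25 were tested, of which 10 fell (40.0%, against 12.1% of all tested genes), 2 rose (8%, against 17.7%) and 13 did not pass, and the median was -0.94. Maf, which encodes a factor that promotes keratinocyte differentiation, fell by 1.32 ± 0.24, from 50.7 ± 2.63 to 20.3 ± 7.18 CPM. Satb1, which encodes a chromatin organiser downstream of p63, fell by 0.75 ± 0.13, the homeobox gene Msx2 by 1.08 ± 0.20 and Lhx2, of hair follicle stem cells, by 0.94 ± 0.19 (edgeR adjusted p-values between 0.0190 and 0.0226 for the 4 genes).

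Genes listed as cofactors or protein turnover genes of these factors, with the p63 target Perp among them, had a median nearer to 0. Of 21 tested, 6 fell, 2 rose and 13 did not pass, with a median of -0.16. Cited2, which encodes a coactivator of AP-2 proteins, fell by 1.56 ± 0.32, from 128 ± 4.09 to 43.3 ± 21.0 CPM, and its relative Cited4 fell by 1.64 ± 0.27. Perp, a desmosomal p63 target placed in this list as well as among the targets, fell by 0.89 ± 0.16, and Ezh2, the Polycomb methyltransferase gene, rose by 0.47 ± 0.09.

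Genes known as p63 targets moved in both directions. Without Dlx3, 23 were tested, of which 7 fell, 5 rose and 11 did not pass, with a median of -0.28. The 4 with the smallest p-values all rose. These were Itga3 by 1.78 ± 0.19, Itgb4 by 1.14 ± 0.14, Lama3 by 1.09 ± 0.17 and Fermt1 by 1.28 ± 0.20, which encode integrin subunits, a laminin-332 chain and kindlin-1 (edgeR adjusted p-values between 0.0161 and 0.0163). Dst and Col17a1, whose products are hemidesmosome components, fell by 1.43 ± 0.23 and 0.78 ± 0.16 (edgeR adjusted p = 0.0164 and 0.0233). Among those that fell were also the basal keratin genes Krt5, from 21219 ± 36.8 to 13576 ± 1786 CPM, and Krt14, by 0.58 ± 0.15. These 4 genes were chosen after their values were seen.

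In 21 of the 23 tested terminal differentiation products both ALP libraries lay below both controls, as in 37.5% of all tested genes. Of 25 listed, 23 were tested, and 11 fell (47.8%, against 12.1%), 1 rose (4.35%, against 17.7%) and 11 did not pass, with a median of -1.94. Lor, the loricrin gene, fell by 2.56 ± 0.25 and Cdsn, the corneodesmosin gene, by 2.05 ± 0.24. Sprr1a, of the close-knit small proline-rich family, where shared reads make counts uncertain, fell by 1.94 ± 0.23. Scel, the sciellin gene, fell by 3.96 ± 0.65, and the log2 difference was -6.55 without ALP replicate A, when the ALP library left had 2 counts. Ivl, the involucrin gene and the product that rose, was chosen after its values were seen and went from 4.86 ± 0.252 to 9.21 ± 2.15 CPM.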

How the data were processed

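Total RNA was extracted with TRIzol, per the labels' protocols. The submitters' processing notes name the aligner HISAT2 2.0.5, the read counter featureCounts 1.5.0-p3 and a human build, whereas the table's identifiers are mouse ones. Of the 10 genes, 9 have the coordinates of the GRCm38 GENCODE annotation, all except Ovol1. The sources used here do not state strandedness or the handling of reads with several matches. The authors deposited raw counts per gene, on which all tests were run, and gene lengths. Of their comparison they deposited a mean normalized signal per group, not used here, and log2 fold changes and p-values. Another 4 columns of values per library, in a second unit, were not used here. Column and label numbers disagree, and columns were tied to a group only.

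Counts were fitted in R 4.3.3 with edgeR 4.0.16 (filterByExpr, minimum count 10, minimum total 15; TMM; two-sided quasi-likelihood F test; group as the only term), with 2 residual and a median of 3.53 prior degrees of freedom. Levels between genes are CPM divided by gene length. In these libraries 3 counts equal 0.170 to 0.194 CPM. Lacking molecular identifiers, reads may repeat a molecule, so counting noise understates the error. The fit was also run on simulated counts that gave all 4 libraries the same spread. The real ALP pair differed more than the control pair, so the simulation does not show how the fit did on these data. Alternatives were DESeq2 1.42.0, limma-voom (limma 3.58.1), other scalings and filters, each library left out, and 9 details of the edgeR fit added after the data were seen.

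The 10 genes, the lists and the rules were chosen with earlier results of these data known. Named were all 10 genes and, of each list, the 4 tested genes with the smallest p-values. Chosen after their values or the table's family column were seen were Trp53, Trp73, Tfap2b, Tfap2d, Grhl2, Krt5, Krt14, Dst, Col17a1, Ivl, Krt1, Cnfn, Aloxe3, the markers named singly and the genes of the closing section. Some results are not reported here.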

Additional observations from a re-analysis of the deposited data

How the results depend on the processing

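Each of the 19 alternatives, 9 of them added after the data were seen, kept the sign of the fitted difference for every one of the 10 genes, except that Grhl3 turned to 0.15 without ALP replicate B (-0.41 without ALP replicate A). The added ones left the fold changes almost as they were and could hardly turn a sign. In genes whose groups did not overlap, leaving a library out could turn it only through the scaling. The kept signs are therefore weak support. No paired analysis was possible because the columns of the 2 groups share only 1 replicate number. The number of the 10 genes called lower, 3 as reported, was 4 with median-of-ratios scaling or a minimum count of 20, 5 with upper quartile scaling, 7 without a low-count filter, 6 by DESeq2 and 7 by limma-voom. Under the added alternatives it was 2 with a robust prior, which left Trp63 and Tfap2e, 4 with a common dispersion, which added Grhl1 (edgeR adjusted p = 0.0494), and 3 in the others, and 4165 to 4314 genes of the table were called. With 1 library left out it ranged from 0 to 8, and 0 of the 10 were called higher in each. Without an ALP library the spread comes from the control pair alone, and without a control library from the ALP pair, with the lone library assumed to vary alike. Over all genes, 2483 were called higher and 1705 lower, with ranges of 0 to 3750 and 0 to 3558 when 1 library was left out. All calls over the table ended without control replicate A, although 3311 genes then had an unadjusted p under 0.05 by edgeR, and DESeq2 and limma-voom, with all libraries, called 4078 and 4741 genes. With 1 library left out, paralogs called higher and lower ranged from 0 to 3 and 0 to 10, other regulators from 0 to 3 and 0 to 19, cofactors from 0 to 3 and 0 to 9, p63 targets from 0 to 7 and 0 to 13, and differentiation products from 0 to 1 and 0 to 20. The cofactors called higher were 1 in place of 2 with either other scaling, without the filter and with a minimum count of 20, and limma-voom called 18 differentiation products lower in place of 11. The causes were not tested. The ratios between related genes moved by less than 1 SD in all 50 recomputed values. Where a library was left out this was fixed in advance, because the mean of 2 libraries lies within 1 SD of each. Only the values with 0.5 counts added could have moved further. The planned recomputation of these ratios from the deposited values per length was not run. Without ALP replicate A or without ALP replicate B, Scel, Dlx3, Grhl1, Klf5, Ovol1 or Tfap2a moved by over 1.5 times, as given in the report.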

Other observations

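Among genes that the table assigns to transcription factor families, those of the Homeobox family include Dlx3. Of its 66 tested genes, 24 (36.4%) were called lower and 3 (4.55%) higher, with a median log2 fold change of -0.64. Of 918 tested genes of any such family, 165 (18.0%) were called lower and 72 (7.84%) higher, with a median of -0.18. For all tested genes these shares were 12.1% lower and 17.7% higher. In the zf-C2H2 family, which holds Klf4, Klf5 and Ovol1, 43 of 422 (10.2%) were called lower and 15 (3.55%) higher.

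Pou2f3 and Barx2 differed more between the ALP libraries than Dlx3 did, and did not pass. Pou2f3, which encodes a POU factor of differentiating keratinocytes, measured 24.3 and 0.970 CPM in ALP replicates A and B against 56.5 and 50.6 CPM in the controls (edgeR adjusted p = 0.172). Barx2, which encodes a homeobox factor, measured 40.6 and 10.2 CPM against 76.2 and 75.9 CPM (edgeR adjusted p = 0.0849). Prdm1, which encodes BLIMP1, was 1 of the 2 regulators that rose, from 7.65 ± 1.05 to 19.2 ± 7.51 CPM (edgeR adjusted p = 0.0303). These genes were chosen after their values were seen.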
